A study of Drosophila melanogaster with 9 samples.

Results

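The genes described here are 10 components of epidermal growth factor receptor (EGFR) signalling in the fly eye, measured as messenger RNA in pupal eyes that overexpressed the nuclear protein Bonus (Bon), with or without knockdown of the transcriptional coactivator Yorkie (Yki). They were taken by exact gene name from the deposited count tables and are Egfr (the receptor), spi and vn (ligands), rho and ru (ligand-cleaving proteases), pnt and aop (nuclear effectors), and aos, sty and kek1 (inhibitors). All 10 were found among 17558 listed genes, and all 10 were among the 11068 genes that passed the filter on low counts.

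Pupal eyes of Drosophila melanogaster raised at 25 °C were taken when the pupae were 40 to 41 hours old, counted from puparium formation, and 60 eyes were pooled for bulk RNA sequencing. In the Bon+yki-RNAi group the driver pGMR-GAL4 stood opposite a UAS-yki-RNAi transgene, in flies that also carried UAS-bon-mCherry over an unmarked chromosome. In the Bon group the same UAS-bon-mCherry transgene and the same driver were each carried in 1 copy, without an RNAi transgene. In the mCherry group, the control, pGMR-GAL4 was opposite UAS-mCherry. All 3 groups therefore carried the driver, which is active in differentiating eye cells behind the morphogenetic furrow and not in 1 cell type alone. Each genotype is represented by 1 combination of transgenes. Bon+yki-RNAi eyes carried 1 UAS transgene more than Bon eyes, and no group used here pairs Bon with an unrelated RNAi construct, so knockdown of yki and an added UAS target cannot be told apart. Each group had 3 libraries, described by the series as biological replicates; the labels speak of 60 eyes per genotype and do not say whether each library had its own pool, so p-values measure the spread between these libraries, which may be technical. The study asked how Bon and Yki direct the choice between eye and epidermal fate.

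In the developing fly eye, Spitz (the product of spi) is made as a membrane-bound precursor, and rhomboid proteases such as Rhomboid (rho) and Roughoid (ru) cut it so that it can be secreted. Secreted Spitz binds Egfr and activates the Ras and MAP kinase relay, which ends on the ETS-domain factors Pointed (pnt, an activator) and Anterior open (aop, also called Yan, a repressor). The pathway is known for recruiting photoreceptors, cone cells and pigment cells in turn, and it limits itself through inhibitors whose genes it can switch on: Argos (aos) captures Spitz outside the cell, Sprouty (sty) acts inside the cell, and Kekkon 1 (kek1) binds the receptor at the membrane.

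The libraries held 37137136 to 39690537 counts in Bon+yki-RNAi, 38754394 to 48485542 in Bon and 34926438 to 48524961 in mCherry, and log CPM values of libraries of the same group had correlations across genes of at least 0.996. Expression is given below as CPM, counts set relative to a library size that was adjusted by TMM (trimmed mean of M values) scaling. The gene bon had 4166 ± 48.1 CPM in Bon+yki-RNAi, 4983 ± 258 CPM in Bon and 174 ± 2.94 CPM in mCherry eyes (SD, n = 3 each). It was thus lower in Bon+yki-RNAi than in Bon eyes, with a log2 fold change of -0.26 ± 0.03 (SE; edgeR quasi-likelihood test, adjusted p = 6.14e-05). The gene yki had 29.2 ± 0.250 CPM in Bon+yki-RNAi, 62.6 ± 0.316 CPM in Bon and 61.1 ± 1.46 CPM in mCherry eyes, so the knockdown was seen in every library that carried the RNAi. Most markers of the labelled tissue were present in every library, but ninaE, Rh3 and Rh4 had at most 0.69 CPM in any library. Most tested markers differed between groups. Of 11 tested photoreceptor and retina markers 7 were lower in Bon than in mCherry, 3 higher and 1 did not pass. The neuronal gene elav lay between 361 and 451 CPM and the retinal transcription factor gene gl between 414 and 480 CPM over the 9 libraries, both among the 3 higher ones. The eye-fate gene eya, among the 7 lower ones, had a mean of 285 CPM in Bon+yki-RNAi, 247 CPM in Bon and 517 CPM in mCherry.

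Relative to mCherry eyes, Bon eyes had less RNA of the ligand gene vn and of both proteases, a smaller deficit of kek1, sty and Egfr, and more RNA of spi and pnt. At an adjusted p of 0.05, 2 of the 10 genes were higher in Bon (spi, pnt), 6 were lower (vn, ru, rho, kek1, sty, Egfr) and 2 did not pass (aos, aop). Among all 11068 tested genes 52.4% passed, with 25.2% higher and 27.2% lower, and the 8 of 10 stand beside that background. Libraries of the groups did not overlap for the same 2 higher and 6 lower members, as for 58.6% of all genes, 28.7% higher and 29.9% lower. The median log2 fold change of the 10 genes was -0.35, beside -0.0015 over all tested genes, and their median size without sign was 0.42, beside 0.18. The 3 strongest decreases were large for this data set: the log2 change of vn exceeded that of 95.7% of tested genes in size, ru 92.8% and rho 92.1%. The change of Egfr, in contrast, exceeded that of 54.8% of genes. With upper-quartile scaling, 3894 genes were higher and 2323 lower, in place of 2786 and 3009, and aop joined the genes that were higher.

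Relative to Bon eyes, Bon+yki-RNAi eyes had more RNA of vn, ru, rho, sty and kek1, which had been lower in Bon, and more of aos and pnt. Of the 10 genes 7 were higher in Bon+yki-RNAi, 1 was lower (Egfr) and 2 did not pass (spi, aop). Over all tested genes 27.6% passed, 11.3% of them higher and 16.3% lower, both as shares of the 11068. Libraries did not overlap for 9 members, 7 of them higher and 2 lower (Egfr, aop), and for 44.4% of all genes, 19.6% higher and 24.8% lower. The median log2 fold change of the 10 was 0.22, beside -0.0088 over all genes, and the median size was 0.26, beside 0.10. The increase of vn was larger in size than the change of 93.6% of tested genes, that of ru 86.0%, and the decrease of Egfr 83.9%. Upper-quartile scaling gave 1610 genes higher and 1468 lower in place of 1251 and 1803. This comparison shares the Bon libraries with that of Bon against mCherry, so a chance deviation of the Bon libraries enters both with opposite sign.

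Set directly against mCherry eyes, Bon+yki-RNAi eyes were still lower in vn, rho, ru, Egfr, kek1 and sty and higher in pnt, spi and aos; aop did not pass, except with upper-quartile scaling (log2 fold change 0.081, edgeR adjusted p = 0.0121). Thus 6 of the 10 genes were lower and 3 higher, where 54.5% of all genes passed, 29.4% lower and 25.1% higher. The same 9 members had no overlap between these groups, as did 61.8% of all genes, 32.6% lower and 29.2% higher. The median log2 fold change was -0.32 for the 10 genes and -0.0003 for all genes. Upper-quartile scaling moved the split over all genes to 4252 higher and 2412 lower, from 2773 and 3259. These libraries are the ones used in the other comparisons as well.

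**Figure D1:**
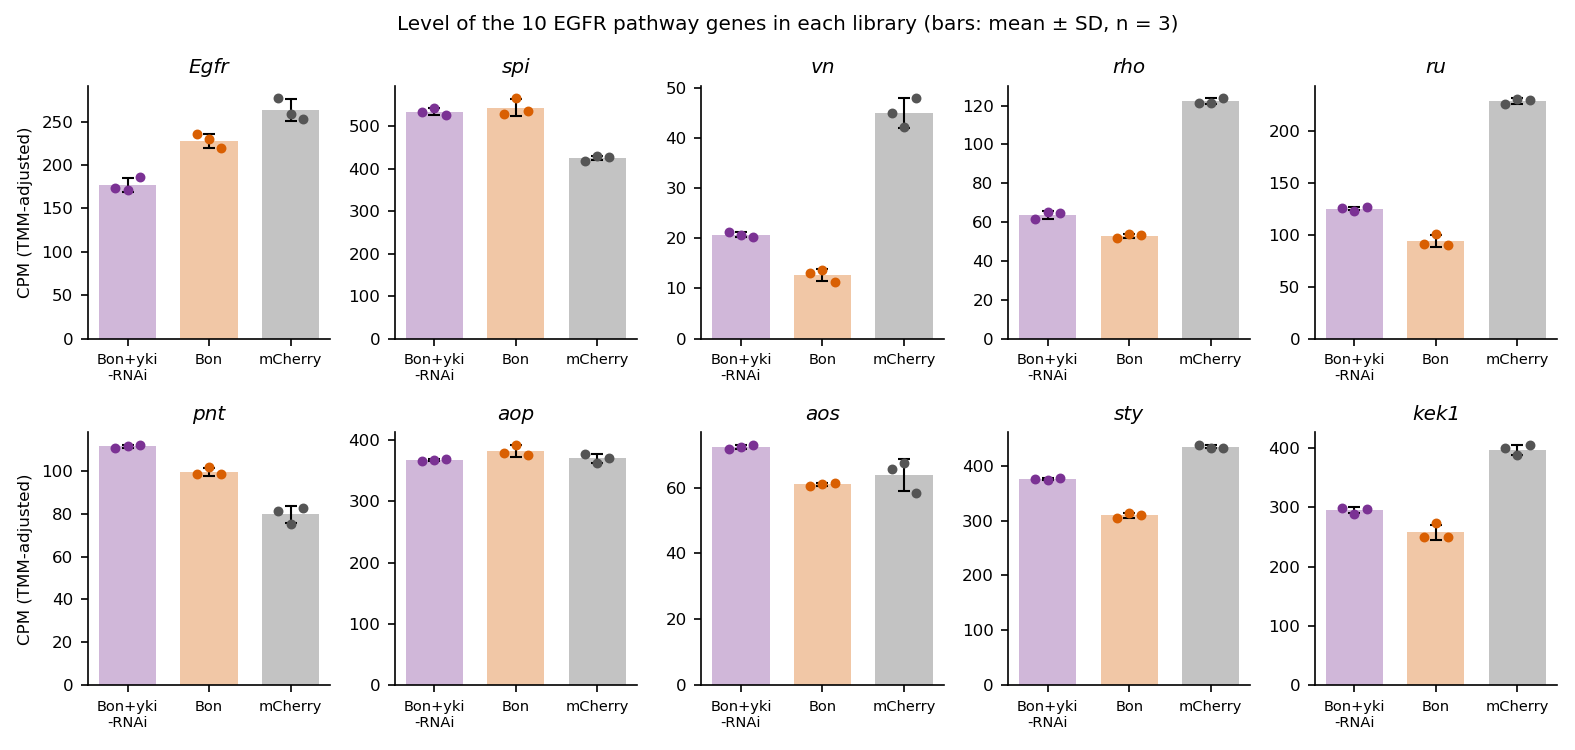
Expression of the 10 EGFR pathway genes in CPM, each panel on an axis from 0; points are libraries, bars the mean of 3 and whiskers the SD, with Bon+yki-RNAi left, Bon in the middle and mCherry right. For rho, ru, vn, sty and kek1 the Bon+yki-RNAi points lie between the other groups without overlap; Egfr is lowest and pnt highest in Bon+yki-RNAi; aop covers 362 to 393 CPM in all 9 libraries.

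To set the genes beside each other, levels were divided by the deposited gene length and are given as CPM per kilobase. The ligand precursor gene spi stood at the top in every group, with a level of 294 ± 4.31 CPM per kilobase in Bon+yki-RNAi, 299 ± 10.9 in Bon and 234 ± 2.85 in mCherry. The other ligand gene, vn, stood at the bottom in every group, with a level of 3.96 CPM per kilobase in Bon+yki-RNAi (libraries from 3.87 to 4.06), 2.41 ± 0.230 in Bon and 8.59 ± 0.560 in mCherry. Between these ends the order differed by group. In Bon+yki-RNAi it ran from spi to ru (69.8 ± 1.03), sty (69.0 ± 0.266), aop (67.4 ± 0.401), kek1 (50.9 ± 0.864), aos (25.7 ± 0.219), Egfr (25.5 ± 1.16), rho (21.2 ± 0.658), pnt (18.2 ± 0.125) and vn, all in CPM per kilobase, and the libraries of ru and sty, and of aos and Egfr, overlapped. In Bon, aop (70.1 ± 1.71) and sty (56.9 ± 0.843) came before ru (52.3 ± 3.23), followed by kek1 (44.5 ± 2.28), Egfr (32.8 ± 1.16), aos (21.6 ± 0.175), rho (17.7 ± 0.328) and pnt (16.3 ± 0.313), with no overlap between neighbours. In mCherry eyes ru (127 ± 1.62) came next after spi, then sty (80.0 ± 0.593), kek1 (68.7 ± 1.47), aop (67.9 ± 1.41), rho (40.8 ± 0.482), Egfr (37.9 ± 1.80), aos (22.6 ± 1.69) and pnt (13.0 ± 0.639), and kek1 and aop overlapped. By mean level, the protease gene ru thus held the place after spi in mCherry and Bon+yki-RNAi eyes and stood behind aop and sty in Bon eyes. A deposited length covers all annotated exons of a gene, so genes whose eye transcripts use fewer exons are understated on this scale.

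**Figure D2:**
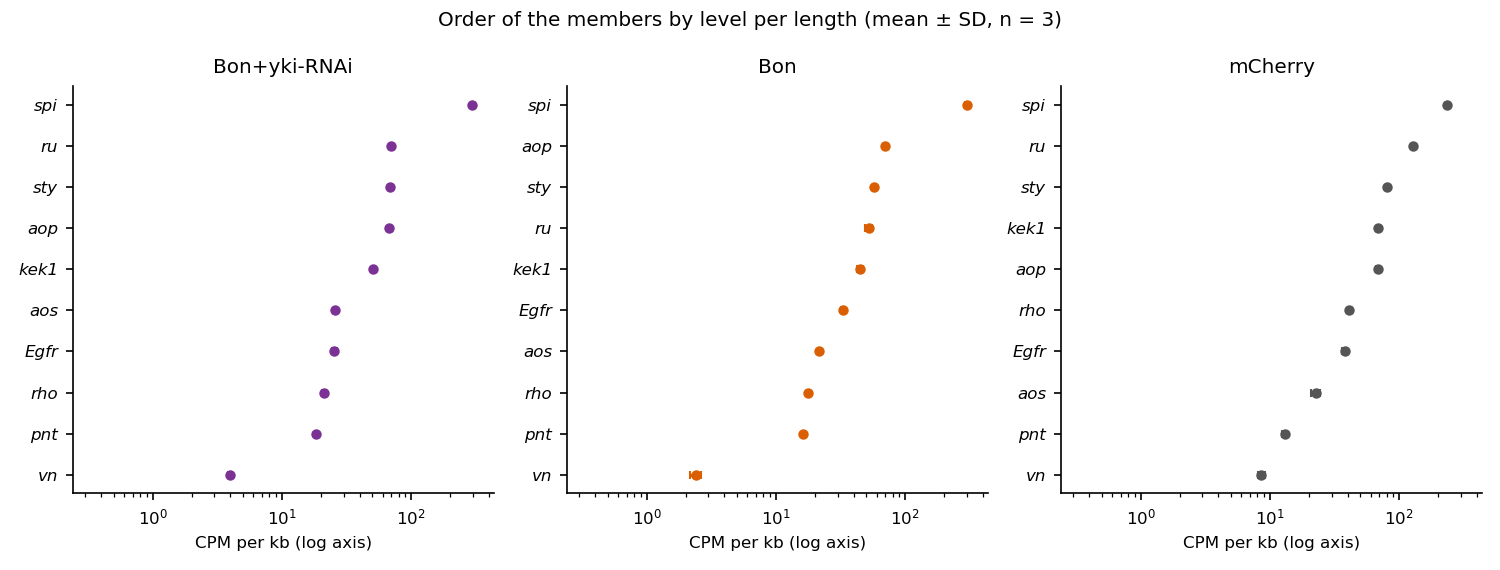
Levels of the 10 genes in CPM per kilobase on a log axis, one panel per group (Bon+yki-RNAi left, Bon middle, mCherry right) with the genes sorted by level from the top; points are means of 3 libraries and bars the SD. spi is at the top and vn at the bottom of each panel. By mean, ru stands below aop and sty in Bon and above them in the other groups, though ru and sty libraries overlapped in Bon+yki-RNAi.

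Egfr (FBgn0003731; BDGP6, chromosome arm 2R, 21522420 to 21559977, plus strand) encodes the fly EGF receptor. It had 173, 171 and 186 CPM in Bon+yki-RNAi libraries 1 to 3, 235, 230 and 219 CPM in Bon and 277, 259 and 253 CPM in mCherry. Each group stood apart from the next, lowest in Bon+yki-RNAi and highest in mCherry. The log2 fold change was -0.37 ± 0.04 for Bon+yki-RNAi against Bon (SE; edgeR quasi-likelihood test, adjusted p = 1.69e-05) and -0.21 ± 0.04 for Bon against mCherry (adjusted p = 0.000724). Egfr was the member in which both steps had the negative sign, so that Bon+yki-RNAi eyes reached 0.672 of the mCherry level.

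The ligand genes differed in level and in direction. spi (FBgn0005672; arm 2L, 19567900 to 19577315, minus strand) had 533, 542 and 527 CPM in Bon+yki-RNAi, 529, 566 and 536 CPM in Bon and 419, 429 and 427 CPM in mCherry. All 6 libraries with the Bon transgene were above all mCherry libraries, and the Bon+yki-RNAi and Bon libraries overlapped. The log2 fold change was 0.36 ± 0.03 for Bon against mCherry (edgeR adjusted p = 9.63e-08) and -0.03 ± 0.03 for Bon+yki-RNAi against Bon (adjusted p = 0.56), a difference whose sign depended on Bon library 2, without which it was 0.0016. vn (FBgn0003984; arm 3L, 5813338 to 5845664, minus strand) encodes Vein, a secreted neuregulin-like ligand that needs no rhomboid cleavage. vn had 21.3, 20.7 and 20.3 CPM in Bon+yki-RNAi, 13.0, 13.6 and 11.3 CPM in Bon and 45.0, 42.1 and 48.0 CPM in mCherry. The groups did not overlap, with Bon lowest and mCherry highest. vn was 3.54-fold lower in Bon than in mCherry (log2 fold change -1.82 ± 0.06, edgeR adjusted p = 1.51e-11) and 1.64-fold higher in Bon+yki-RNAi than in Bon (0.71 ± 0.07, adjusted p = 3.35e-06).

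The protease genes rho (FBgn0004635; arm 3L, 1463811 to 1468944, plus strand) and ru (FBgn0003295; arm 3L, 1370628 to 1387437, plus strand) encode rhomboid-family serine proteases that cut Spitz within the membrane. They lie 76.4 kb apart on the same strand, with 12 annotated genes in between. Both overlap the span of Ptp61F on the opposite strand without sharing exon bases with it, and whether counting used strand is not known. rho had 61.5, 65.1 and 64.6 CPM in Bon+yki-RNAi, 51.9, 53.7 and 53.5 CPM in Bon and 122, 121 and 124 CPM in mCherry. ru had 126, 123 and 127 CPM in Bon+yki-RNAi, 91.4, 101 and 90.1 CPM in Bon and 226, 231 and 230.2 CPM in mCherry. For both genes the 3 groups stood apart, with Bon lowest, Bon+yki-RNAi next and mCherry highest. rho was 2.31-fold lower in Bon than in mCherry (log2 fold change -1.21 ± 0.03, edgeR adjusted p = 1.81e-13), and ru was 2.44-fold lower (-1.28 ± 0.04, adjusted p = 7.67e-13). In Bon+yki-RNAi against Bon, rho was higher by 0.27 ± 0.03 on the log2 scale (adjusted p = 1.74e-05) and ru by 0.41 ± 0.04 (adjusted p = 1.28e-06). Both genes nevertheless stayed well below the mCherry level, with log2 fold changes of -0.94 ± 0.03 for rho and -0.87 ± 0.04 for ru in Bon+yki-RNAi against mCherry (adjusted p = 2.91e-12 and 5.45e-11).

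The other rhomboid-family genes, grouped here after their values were seen, did not share 1 direction. rho-6 had 0.241 ± 0.0196 CPM in Bon+yki-RNAi, 0.167 ± 0.0329 CPM in Bon and 11.3 ± 1.53 CPM in mCherry, with a log2 fold change of -6.08 ± 0.17 for Bon against mCherry (edgeR adjusted p = 7.55e-13). Between Bon+yki-RNAi and Bon its difference of 0.54 ± 0.37 did not pass (adjusted p = 0.33), at levels near the 0.0618 to 0.0859 CPM that 3 counts stand for in these libraries. rho-5, which is known as a catalytically inactive rhomboid, had 127 ± 2.296 CPM in Bon+yki-RNAi, 111 ± 3.15 CPM in Bon and 101 ± 5.68 CPM in mCherry, and was higher in each step (log2 0.19 ± 0.04, adjusted p = 0.0014, and 0.14 ± 0.04, adjusted p = 0.00465). stet, a rhomboid known from the germline, had 26.1 ± 0.230 CPM in Bon+yki-RNAi, 21.7 ± 0.551 CPM in Bon and 22.2 ± 1.17 CPM in mCherry, and was higher in Bon+yki-RNAi than in Bon (0.27 ± 0.04, adjusted p = 0.00038), while Bon against mCherry gave -0.03 ± 0.04 (adjusted p = 0.577). rho-4 fell in Bon+yki-RNAi relative to Bon (-0.14 ± 0.03, adjusted p = 0.00412), and its log2 fold change for Bon against mCherry was -0.08 (adjusted p = 0.0507). S, whose product Star carries Spitz out of the endoplasmic reticulum, had 204 ± 2.83 CPM in Bon+yki-RNAi, 196 ± 12.3 CPM in Bon and 196 ± 2.31 CPM in mCherry, with adjusted p = 0.273 and 0.995 in the same edgeR comparisons.

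**Figure D3:**
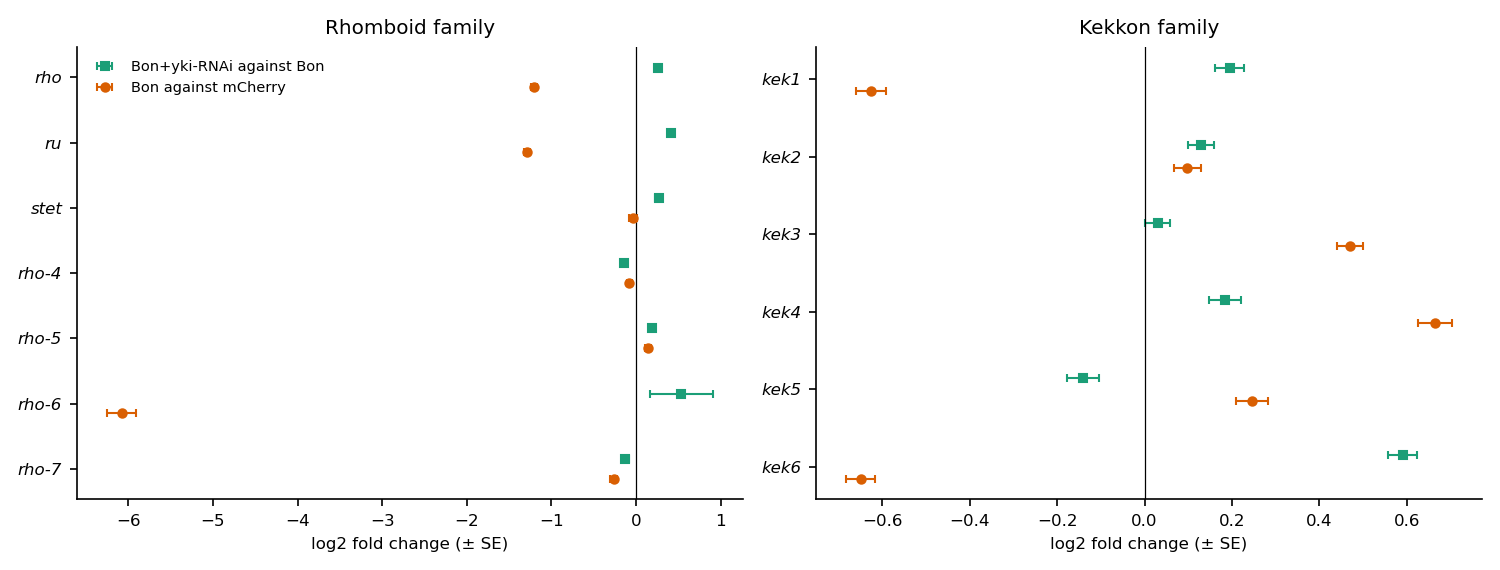
Log2 fold changes with SE bars of the rhomboid-family genes (left) and the kekkon-family genes (right) on separate linear axes, with Bon+yki-RNAi against Bon as squares and Bon against mCherry as circles. In Bon against mCherry rho, ru and rho-6 lie at -1.21, -1.28 and -6.08 and kek1 and kek6 at -0.63 and -0.65, while kek3 and kek4 lie at 0.47 and 0.66.

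The nuclear effector genes carry opposite functions. pnt (FBgn0003118; arm 3R, 23290231 to 23346167, minus strand) had 111, 112 and 112 CPM in Bon+yki-RNAi, 98.5, 102 and 98.5 CPM in Bon and 81.2, 75.3 and 82.6 CPM in mCherry. The groups did not overlap, and Bon+yki-RNAi was highest. The log2 fold change was 0.16 ± 0.03 for Bon+yki-RNAi against Bon (edgeR adjusted p = 0.00199) and 0.32 ± 0.03 for Bon against mCherry (adjusted p = 1.47e-06). pnt has alternative promoters that give different proteins, and the counts per gene do not separate them. aop (FBgn0000097; arm 2L, 2156484 to 2178754, minus strand) had 366, 368 and 369.9 CPM in Bon+yki-RNAi, 379, 393 and 375 CPM in Bon and 378, 362 and 371 CPM in mCherry. Bon and mCherry libraries overlapped; Bon+yki-RNAi libraries were below all Bon libraries and within the mCherry range. The differences did not pass, with log2 fold changes of -0.06 ± 0.03 for Bon+yki-RNAi against Bon (adjusted p = 0.133) and 0.05 ± 0.03 for Bon against mCherry (adjusted p = 0.158), although upper-quartile scaling gave 0.11 for Bon against mCherry (adjusted p = 0.00137). The value of aop is uncertain in another way: 307 bases of its exons overlap exons of CG15382 on the opposite strand, and whether counting used strand is not given in the sources used here.

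The inhibitor genes aos, sty and kek1 were all higher in Bon+yki-RNAi than in Bon. aos (FBgn0004569; arm 3L, 16470386 to 16483650, minus strand) had 71.8, 72.4 and 73.1 CPM in Bon+yki-RNAi, 60.4, 61.0 and 61.4 CPM in Bon and 65.6, 67.4 and 58.4 CPM in mCherry. Bon+yki-RNAi stood above both other groups, while the Bon libraries lay within the mCherry range. The log2 fold change was 0.25 ± 0.04 for Bon+yki-RNAi against Bon (edgeR adjusted p = 0.000488), 0.18 ± 0.04 for Bon+yki-RNAi against mCherry (adjusted p = 0.00233) and -0.07 ± 0.04 for Bon against mCherry (adjusted p = 0.195). The last value depended on mCherry library 3, the lowest of its group: without it aos was lower in Bon, at -0.13 (adjusted p = 0.00263).

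sty (FBgn0014388; arm 3L, 3401153 to 3424935, minus strand) had 375, 374 and 377 CPM in Bon+yki-RNAi, 305, 314 and 309 CPM in Bon and 439, 433 and 433 CPM in mCherry. kek1 (FBgn0015399; arm 2L, 12817000 to 12822787, minus strand) had 298, 289 and 297 CPM in Bon+yki-RNAi, 249, 273 and 251 CPM in Bon and 399.8, 388 and 404 CPM in mCherry. Both genes had 3 separate groups in the order seen for vn, rho and ru, with Bon lowest and mCherry highest. sty changed by -0.49 ± 0.02 in Bon against mCherry (log2; edgeR adjusted p = 2.59e-10) and by 0.28 ± 0.02 in Bon+yki-RNAi against Bon (adjusted p = 7.22e-07). kek1 changed by -0.63 ± 0.03 in Bon against mCherry (adjusted p = 1.13e-09) and by 0.19 ± 0.03 in Bon+yki-RNAi against Bon (adjusted p = 0.000653). In Bon+yki-RNAi against mCherry, sty was lower by a log2 fold change of -0.21 ± 0.02 and kek1 by -0.43 ± 0.03 (adjusted p = 2.38e-06 and 6.44e-08).

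The other kekkon genes, which encode related leucine-rich repeat and immunoglobulin transmembrane proteins and were also grouped after their values were seen, did not share 1 direction. kek6 had 271 ± 6.97 CPM in Bon+yki-RNAi, 180.03 ± 6.05 CPM in Bon and 282 ± 10.0002 CPM in mCherry. Like kek1, it was lower in Bon than in mCherry and higher in Bon+yki-RNAi than in Bon, changing by -0.65 ± 0.03 in Bon against mCherry (log2; edgeR adjusted p = 6.21e-10) and by 0.59 ± 0.03 in Bon+yki-RNAi against Bon (adjusted p = 1.27e-08). Its difference between Bon+yki-RNAi and mCherry was -0.06 ± 0.03 (adjusted p = 0.15), and the sign changed with upper-quartile scaling (0.03). kek3 had 281 ± 5.15 CPM in Bon+yki-RNAi, 275 ± 9.73 CPM in Bon and 199 ± 3.33 CPM in mCherry, and kek4 had 40.9 ± 0.316, 36.0 ± 0.105 and 22.7 ± 1.07 CPM in the same order of groups. Both were higher in Bon than in mCherry (log2 0.47 ± 0.03 and 0.66 ± 0.04, adjusted p = 5.97e-09 and 2.26e-09). kek2 and kek5 were higher in Bon than in mCherry by 0.10 ± 0.03 and 0.25 ± 0.04 (adjusted p = 0.0148 and 5.48e-05). In Bon+yki-RNAi against Bon, kek2 was higher by 0.13 ± 0.03 (adjusted p = 0.00539) and kek5 was lower by -0.14 ± 0.04 (adjusted p = 0.0106), and the kek5 call was lost without Bon+yki-RNAi library 2 (adjusted p = 0.0562).

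**Figure D4:**
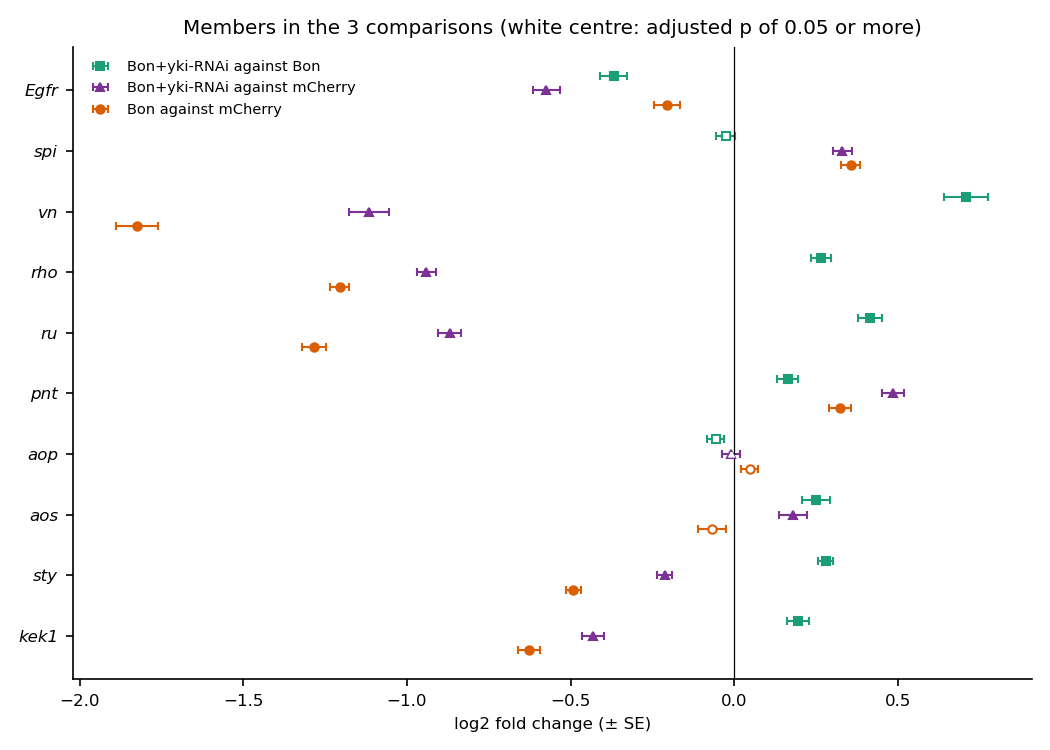
Log2 fold changes of the 10 genes with SE bars in the 3 comparisons, ordered by role; points with a white centre have an adjusted p of 0.05 or more. In Bon+yki-RNAi against Bon vn, ru and rho lie at 0.71, 0.41 and 0.27, in Bon against mCherry they lie at -1.82, -1.28 and -1.21, and Egfr is negative in each comparison.

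The rest of the pathway was taken as 4 lists of 52 tested genes besides the 10. In Bon against mCherry 19 of the 52 were higher, 12 lower and 21 did not pass, where 25.2% of all tested genes were higher and 27.2% lower. Other ligand and ligand-processing genes gave 2 higher and 3 lower of 9, led after rho-6 by sl, a phospholipase C gene (-0.30 ± 0.03, edgeR adjusted p = 4.12e-06), and by rho-7, a mitochondrial rhomboid (-0.26 ± 0.04, adjusted p = 9.47e-05). The Ras and MAP kinase relay had the lowest median size of change, without sign, of these lists. That median was 0.05 on the log2 scale, beside 0.18 over all genes. In the relay list 4 of 13 were higher (8 with upper-quartile scaling) and 1 lower. Its leading gene was csw, the SHP2-type phosphatase gene, with 422 ± 3.60 CPM in Bon+yki-RNAi, 437 ± 7.96 CPM in Bon and 297 ± 11.1 CPM in mCherry (0.56 ± 0.03 in Bon against mCherry, adjusted p = 8.03e-10). The adaptor gene dos (0.25 ± 0.04, adjusted p = 3.32e-05) and phl, the Raf kinase gene (0.23 ± 0.04, adjusted p = 0.000127), were higher as well. rl, the MAP kinase gene, was lower, at -0.23 ± 0.03 (adjusted p = 3.55e-05).

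Of 17 genes listed as other inhibitors of the receptor or of Ras, 10 were higher in Bon than in mCherry and 3 lower. The list includes kek2 to kek6 as relatives of kek1, and whether each listed gene inhibits the pathway was not tested. The shares over all tested genes, 25.2% higher and 27.2% lower, apply to each list here. The cell-surface gene fred was higher by 0.66 ± 0.04 (log2; edgeR adjusted p = 5.82e-09), in addition to kek2, kek3, kek4 and kek5, while kek6 was among the 3 lower genes. Among 13 other nuclear effectors and eye targets 3 were higher and 5 lower; without mCherry library 3, 5 were higher. sv, the Pax2 gene of cone and primary pigment cells, was the most strongly changed, with 53.9 ± 0.710 CPM in Bon+yki-RNAi, 40.4 ± 3.22 CPM in Bon and 170 ± 1.87 CPM in mCherry (-2.07 ± 0.04 in Bon against mCherry, adjusted p = 4.24e-14). edl, whose product binds Pnt and Aop, had 66.6 ± 2.76 CPM in Bon+yki-RNAi, 66.9 ± 3.48 CPM in Bon and 111 ± 2.05 CPM in mCherry (-0.73 ± 0.04, adjusted p = 9.02e-10). sina, a ubiquitin ligase gene acting with the pathway in photoreceptor fate, was lower by a log2 fold change of -0.70 ± 0.03 (adjusted p = 4.40e-11), and B-H1, a homeobox gene of photoreceptor and pigment cells, by -1.002 ± 0.04 (adjusted p = 1.04e-10). In a list of 11 tested genes of other receptor tyrosine kinase inputs, 7 were higher and 1 was lower. The lower gene was Pvr, the PDGF- and VEGF-type receptor (-0.39 ± 0.04, adjusted p = 1.13e-06), and the higher ones were led by ths, an FGF-type ligand gene (0.43 ± 0.03, adjusted p = 5.10e-08), boss, the ligand gene for the Sevenless receptor (0.41 ± 0.05, adjusted p = 1.29e-05), and bnl, another FGF-type ligand gene (0.27 ± 0.05, adjusted p = 0.000341).

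**Figure D5:**
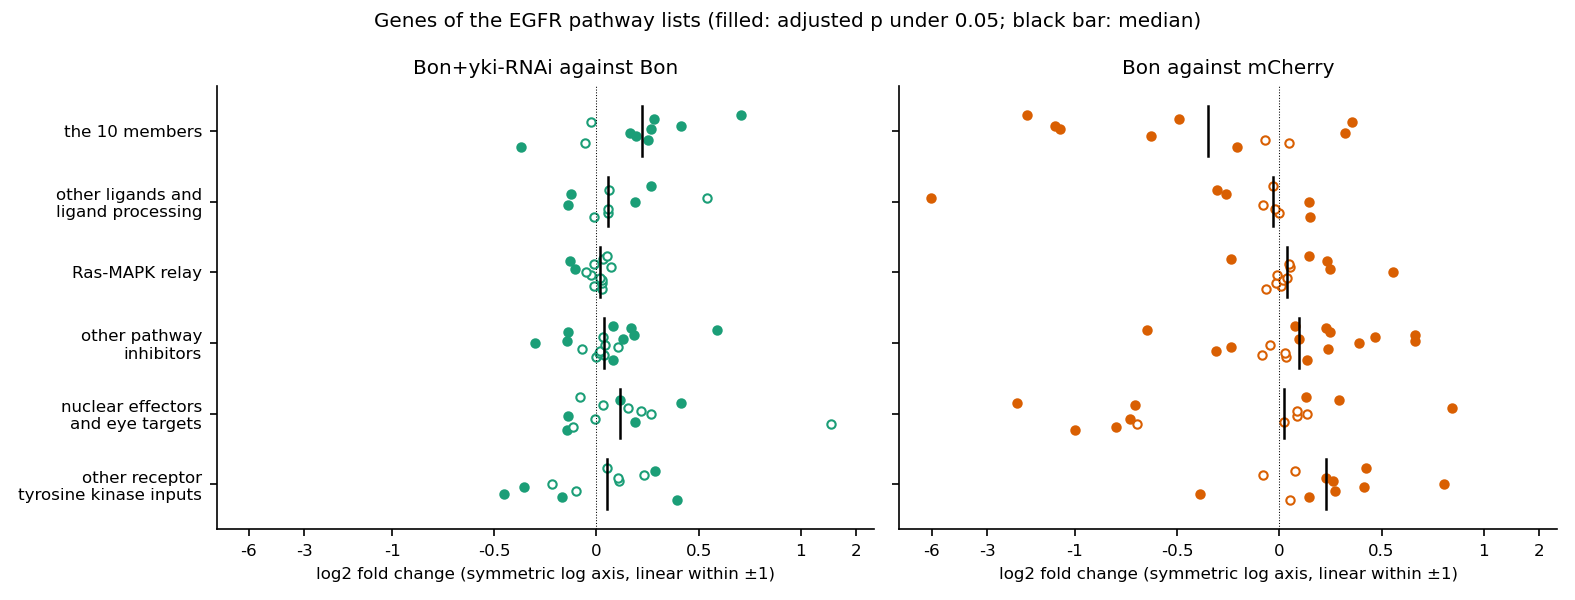
Log2 fold changes of the 10 members and of the other pathway genes by list, for Bon+yki-RNAi against Bon (left) and Bon against mCherry (right); each point is a gene, filled where the adjusted p is under 0.05, black bars are medians, and the axis is linear between -1 and 1 and logarithmic outside. Most relay genes lie near 0, while rho-6 at -6.08 and sv at -2.07 lie farthest out in Bon against mCherry.

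In Bon+yki-RNAi against Bon, 11 of the 52 other pathway genes were higher, 9 lower and 32 did not pass, where 11.3% of all tested genes were higher and 16.3% lower. The lower count rested on weak calls: it was 3 to 5 without any 1 Bon+yki-RNAi library or without Bon library 1 or 2, 11 without Bon library 3, and 5 with upper-quartile scaling or with the DESeq2 Wald test. With TMM scaling none of the 13 relay genes was higher by the edgeR test; drk, an adaptor gene chosen here after its value was seen, stood at 0.07 (adjusted p = 0.0729) and passed with RLE scaling (adjusted p = 0.0443) and with upper-quartile scaling (adjusted p = 0.0182). The median size of change in the relay list was 0.03 on the log2 scale, beside 0.10 over all genes. Calls that held with each library left out in turn included those of kek6, of sv (0.41 ± 0.04, edgeR adjusted p = 9.89e-06), of the immunoglobulin-domain genes ed (-0.30 ± 0.04, adjusted p = 0.000213) and lbk (0.17 ± 0.03, adjusted p = 0.000551), and of kek4 (0.18 ± 0.04, adjusted p = 0.0016). ed, whose product opposes Egfr signalling in the eye, had 1006 ± 17.3 CPM in Bon+yki-RNAi, 1240 ± 89.2 CPM in Bon and 946 ± 31.4 CPM in mCherry. edl and sina did not pass in this comparison, at -0.01 ± 0.04 (adjusted p = 0.914) and 0.03 ± 0.03 (adjusted p = 0.497). Of the other receptor tyrosine kinase inputs 2 of 11 were higher and 3 lower. Pvr was lower by a log2 fold change of -0.45 ± 0.04 (adjusted p = 1.68e-06), boss by -0.35 ± 0.05 (adjusted p = 0.000145) and the insulin receptor gene InR by -0.17 ± 0.03 (adjusted p = 0.000562). The higher ones, stumps (0.28 ± 0.08, adjusted p = 0.0413) and Alk (0.39 ± 0.12, adjusted p = 0.0451), were both lost without any 1 of the Bon+yki-RNAi libraries or without Bon library 1 or 2.

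Pvr therefore stood lowest in Bon+yki-RNAi and highest in mCherry, as Egfr did, with 26.4 ± 0.646 CPM in Bon+yki-RNAi, 36.1 ± 1.70 CPM in Bon and 47.3 ± 1.18 CPM in mCherry. This likeness was noticed after the values were seen.

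For rho, ru and vn, whose highest and lowest group means differed by at least 1 on the log2 scale, the genes with the most similar pattern were found as the smallest Euclidean distance between centred log2 CPM values over the 9 libraries, among 7898 genes of at least 5 CPM. For rho they were ninaC (distance 0.15), a photoreceptor myosin and kinase gene, and CG42663 (0.16). For ru they were ninaC again (0.17) and CG10433 (0.21). For vn they were Lrt (0.20), a leucine-rich repeat gene, and w (0.32), the pigment transporter gene, which transgenes commonly carry as a marker so that its endogenous and transgenic reads cannot be told apart. ninaC had 399.7 ± 4.69 CPM in Bon+yki-RNAi, 319 ± 9.11 CPM in Bon and 781 ± 12.1 CPM in mCherry. Lrt had 68.2 ± 1.76 CPM in Bon+yki-RNAi, 42.6 ± 4.96 CPM in Bon and 144 ± 3.74 CPM in mCherry.

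In bulk samples, fewer cells of a type and less RNA per cell cannot be told apart, and marker levels moved with the group. The summed level of 12 photoreceptor and retina markers was 1897 to 1926 CPM in Bon+yki-RNAi, 1919 to 1983 CPM in Bon and 2806 to 2873 CPM in mCherry. That of 10 cone and pigment cell markers was 1911 to 1957 CPM in Bon+yki-RNAi, 1645 to 1704 CPM in Bon and 2799 to 2833 CPM in mCherry. This was the order of groups seen for vn, rho, ru, sty and kek1, and 9 of the 10 markers were lower in Bon than in mCherry. In Bon+yki-RNAi against Bon, 5 of the 10 were higher, 2 lower and 3 did not pass. Those 10 include sv and B-H1, named above, and w. The sum was higher in Bon+yki-RNAi than in Bon mostly through ct and w. Means of ct were 345 CPM in Bon+yki-RNAi and 214 CPM in Bon, and those of w were 292 and 173 CPM. As said above, endogenous and transgenic reads of w cannot be told apart. The hemocyte and muscle sums given below stood in the same order of groups. Genes listed as markers of other cell types were present too. Whether these genes were expressed only in those cell types was not tested. The 9 glial markers summed to 1593 to 1636 CPM in Bon+yki-RNAi, 1563 to 1625 CPM in Bon and 1791 to 1808 CPM in mCherry, with 4 of 8 tested lower and 1 higher in Bon. The 9 hemocyte markers summed to 956 to 1024 CPM in Bon+yki-RNAi, 893 to 951 CPM in Bon and 1157 to 1212 CPM in mCherry. Of 8 tested, 4 were lower in Bon, and He was listed at 0 in every library. Most of that sum was Cg25C (Col4a1), with means of 593 CPM in Bon+yki-RNAi, 574 CPM in Bon and 594 CPM in mCherry. Hml, NimC1 and eater had at most 1.72 CPM in every library. The srp means were 2.13 CPM in Bon+yki-RNAi, 3.31 CPM in Bon and 4.24 CPM in mCherry. The 9 brain neuron markers summed to 2645 to 2796 CPM in Bon+yki-RNAi, 2517 to 2613 CPM in Bon and 1811 to 2081 CPM in mCherry, with 4 of 9 higher in Bon than in mCherry and 5 not passing. Most of that sum was brp, a gene of synaptic active zones, with means of 2073 CPM in Bon+yki-RNAi, 1999 CPM in Bon and 1470.5 CPM in mCherry. The 8 muscle markers summed to 625 to 658 CPM in Bon+yki-RNAi, 520.4 to 591 CPM in Bon and 972 to 1104 CPM in mCherry, with 1 higher, 2 lower and 5 not passing in Bon against mCherry. Nearly all of that sum was sls, a titin-like gene, with means of 613 CPM in Bon+yki-RNAi, 535 CPM in Bon and 1031 CPM in mCherry, and the list's median log2 fold change was 0.08. Fat body markers (7) and tracheal markers (6) summed to at most 64.9 CPM in every library. The part of these shifts in the results for the EGFR genes was not tested.

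The authors' deposited table for Bon against mCherry lists log2 fold changes of -1.82 for vn, -1.28 for ru and -1.20 for rho. In the authors' deposited table for Bon+yki-RNAi against Bon these genes stand at 0.72, 0.43 and 0.28, and Egfr at -0.36. By the adjusted p-values of the authors' deposited tables, 2 members were higher and 6 lower in the first comparison, and 7 were higher and 1 lower in the second. At the same threshold of 0.05, 2156 genes were higher and 2469 lower among about 11580 listed for the first comparison. For the second, 1295 were higher and 1321 lower among about 11470.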

How the data were processed

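For each of 9 libraries the authors deposited a table of counts per gene, with exon positions, strand, length and name per the file headers. The submitters' processing notes name the genome build BDGP6, STAR 2.7.0e as well as Bowtie2 2.3.5.1, featureCounts (Subread 1.6.2), cutadapt 2.9 and DESeq2 1.30.1; the part each played and the strandedness were not stated there. The deposited values are estimated counts: 39.7 to 42.8% of the values in a library had decimals. They were rounded to whole numbers. The authors also deposited 2 comparison tables holding scaled counts as a signal, a ratio (fold), a log2 fold change, p-values and the -log10 of the adjusted p, quoted only where named as theirs.

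Genes were kept by filterByExpr (minimum count 10) of edgeR 4.0.16 (R 4.3.3), scaled by TMM factors (1.03 to 1.04 in Bon+yki-RNAi, 0.991 to 1.01 in Bon, 0.961 to 0.968 in mCherry) and tested with its two-sided quasi-likelihood test (robust, group as the only term, all 9 libraries, n = 3 per group), with Benjamini-Hochberg adjustment over 11068 genes and a threshold of 0.05. All adjusted p-values are from this test unless named otherwise. The SE was derived as the size of the log2 fold change over the root of the F statistic. Alternatives were RLE and upper-quartile scaling, no filter, DESeq2 1.42.0, a replicate block, the libraries of 2 groups alone, and each library left out. The test was checked on simulated counts.

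Members and gene lists were chosen with earlier results of these data known. Besides the members, at most 4 genes per list were named by smallest p in a comparison, and for members differing by at least 1 on the log2 scale the 2 genes nearest in pattern. Groups and replicate numbers come from the sample titles. The rule for pairing was that all 3 same-numbered pairs had deviations from the group means that correlated above 0.1. Bon and mCherry libraries met it (0.135 to 0.338). Bon+yki-RNAi met it with neither group, although every library correlated best with its own number. The fit without the block was kept as planned. Gene symbols were matched for 17252 of 17558 identifiers; phl is named as in the files.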

Additional observations from a re-analysis of the deposited data

How the results depend on the processing

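Each member's log2 fold change was recomputed in 3 comparisons. Of 360 recomputed values, 353 kept their direction and their side of the threshold. 2 came to pass the threshold with the same sign (aop with upper-quartile scaling and aos without mCherry replicate 3, both in Bon against mCherry) and 5 changed sign, all for differences that had not passed, of which 1 then passed. With libraries left out in turn, spi in Bon+yki-RNAi against Bon ranged from -0.0466 to 0.0016 and aop in Bon+yki-RNAi against mCherry from -0.0196 to 0.013. The aop value was 0.00035 with RLE scaling, 0.00042 with the DESeq2 Wald test and 0.081 with upper-quartile scaling, where it passed in edgeR (adjusted p = 0.0121). The cause was not tested. The count of all genes higher in Bon+yki-RNAi than in mCherry was 4252 with upper-quartile scaling, in place of 2773. With 1 library left out, members higher and lower were 2 and 6 to 7 in Bon against mCherry, 7 and 1 in Bon+yki-RNAi against Bon, and 3 and 6 in Bon+yki-RNAi against mCherry. Over all genes, 2629 to 2753 were then higher and 2637 to 2948 lower in Bon against mCherry. The ranges were 871 to 1287 and 1357 to 1720 in Bon+yki-RNAi against Bon, and 2444 to 2819 and 2964 to 3228 in Bon+yki-RNAi against mCherry.

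Bon+yki-RNAi did not meet the rule used for pairing with either other group. Its same-numbered libraries deviated together with correlations of 0.0924 to 0.117 with Bon and 0.0794 to 0.129 with mCherry. Every library nevertheless correlated best with its own number, and a differently numbered pair, Bon 1 with mCherry 2, reached 0.11. The rule therefore cannot decide whether the numbers pair the Bon+yki-RNAi libraries. Bon and mCherry libraries met the rule, though the sample titles do not state a pairing. With the replicate block the members' counts were again 2 and 6, 7 and 1, and 3 and 6, and 2895 and 3091, 1534 and 1914, and 2942 and 3324 of all genes were higher and lower. The block changed no member's call, and in Bon against mCherry it changed 1 call among the list genes (lz, 0.09, adjusted p = 0.0161, then higher). In Bon+yki-RNAi against Bon it gave 1 relay gene, 6 nuclear effectors and eye targets and 4 other receptor tyrosine kinase inputs higher, in place of 0, 3 and 2. The number of libraries (3 per group), pooled eyes and an unknown strand setting limit these values, and vn had the lowest counts, from 441 per library.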
